A study of Mus musculus with 8 samples.

Results

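The genes described here are the mouse genes for the proteins of the cytosolic ribosome, followed across 8 RNA-sequencing libraries of muscle stem cells. They were chosen by symbol alone, as Rpl or Rps followed by a number with at most 1 of the letters a, x, l or y, together with Rplp0, Rplp1, Rplp2 and Rpsa. The rule found 83 genes among 57180 in the count table, 51 of the large subunit and 32 of the small subunit. Some true ribosomal protein genes carry other symbols (Rps3a1, Fau, Rack1, Rpl36al, Rpl7l1 and Rpl22l1, for example) and are described separately.

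Muscle stem cells, which lie along the fibres of skeletal muscle and repair them after injury, were isolated by flow cytometry and their RNA was sequenced without culture. The 4 control libraries, called control 2, 5, 7 and 8 after the replicate numbers of their titles, are labelled wild type or control. The 4 RhoA het libraries, numbered 5, 6, 7 and 8, come from mice with 1 floxed RhoA allele written SC-RhoAfl/+, which the genotype label calls a RhoA knockdown. RhoA is a small GTPase of the actin cytoskeleton, and the series asked how gene expression and splicing change when its activity is reduced. The Cre driver, the age and the sex of the mice, and whether a library is 1 animal or a pool, are not given in the sources used here. The p-values below therefore measure only the spread between these libraries, which may in part be technical.

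Each ribosome is built from 1 copy of nearly every ribosomal protein, and surplus protein that is not assembled is degraded. The genes are accordingly transcribed at similar, high rates in growing cells. Their mRNAs begin with a C followed by an unbroken stretch of C and T, the 5′ terminal oligopyrimidine (TOP) tract, through which the kinase complex mTORC1 and the RNA-binding protein LARP1 control their translation and storage. Stem cells at rest hold little translation capacity and raise it when they are activated.

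The following windows show the annotated start of some of these genes, where such a tract can be looked for. They are examples and do not show how common it is. A run as defined below was found in 42.5% of the family's windows. Each holds 20 bases before and 10 bases from the annotated start onward, from RefSeq promoter sequences of GRCm38.p6. Capitals mark the run of C and T that opens with a C within 5 bases of the start and goes on for at least 4 more letters.
Rps6: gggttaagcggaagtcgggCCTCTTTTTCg
Rpl28: tcgtcccgcctctcgtgtCTCTCTTTCCgt
Rplp2: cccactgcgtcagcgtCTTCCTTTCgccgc
Rpl38: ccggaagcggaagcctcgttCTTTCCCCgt
Rps27: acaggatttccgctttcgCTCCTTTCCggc
Rpl13a: gataagaaaccctgcgacaagaCCTCCTCC
Rps27l: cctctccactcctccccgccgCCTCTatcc
Rplp0: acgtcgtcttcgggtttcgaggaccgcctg
Rps19: agcactccgaaatctcgcgagactcgacgc
The windows lie at chr4:86857358-86857387 (minus strand) for Rps6, chr7:4792945-4792974 (plus strand) for Rpl28, chr7:141447631-141447660 (plus strand) for Rplp2 and chr11:114668560-114668589 (plus strand) for Rpl38. Those of Rps27, Rpl13a and Rps27l are at chr3:90213639-90213668 (minus strand), chr7:45128736-45128765 (minus strand) and chr9:66946066-66946095 (plus strand). The windows of Rplp0 (chr5:115559447-115559476, plus strand) and Rps19 (chr7:24884572-24884601, plus strand) hold no such run and are shown for contrast. This describes the annotated start only and does not show that these mRNAs lack the tract.

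RefSeq windows were matched for 61 of the 83 genes, with 73 starts in all. A run as defined above was present at the start of 29 of the 61 genes (47.5%), against 19.7% of all genes with a window. In windows from 250 bases before to 50 bases after the start, searched on both strands, CCGGAAG was found in 35.6% of the family's windows and 8.86% of all windows. AAGATGG was found in 15.1% against 6.34%, GGGCGG in 57.5% against 35.7% and TATAAA in 9.59% against 13.6%. The reverse complement of CCGGAAG begins with CTTCC and can itself supply a C and T run at the start. A match describes these letters only, and a window without one says nothing of the factor.

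The libraries held between 19138763 and 25606342 assigned fragments. The targeted gene, Rhoa, had 7250, 6656, 7273 and 7102 fragments in control 2, 5, 7 and 8 and 5379, 5706, 5649 and 5488 in RhoA het 5, 6, 7 and 8. In CPM the groups overlapped, with control 7 at 272.6 and RhoA het 8 at 282.1 (log2 fold change -0.29, edgeR unadjusted p 0.0495). All 14 listed muscle stem cell markers were detected, with Pax7, the transcription factor that defines these cells, at 1609 to 4691 fragments. They summed to 9058 to 16950 CPM, and 10 fibro-adipogenic markers to 4893 to 13990 CPM. The fibro-adipogenic sum was the higher in control 5 (13990 against 10140 CPM) and RhoA het 5 (12560 against 9058 CPM). The part of RNA from other cells was not tested. Control 5 stood apart from the other controls in its cell cycle, dissociation and myofibre markers, and RhoA het 6 held endothelial RNA at a summed 992 CPM against 86.5 to 221 CPM elsewhere. CPM is the fragment count scaled to a common library total after TMM scaling, which corrects for library composition. Results that rest on control 5 are given with and without it.

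Ribosomal protein mRNAs were abundant in every library. Of the 83 genes, 82 had at least 1 fragment, 74 averaged at least 100 TPM and 29 at least 1000 TPM. TPM scales fragments by gene length and is the scale used here to compare genes with each other. The highest averages over the 8 libraries were those of Rpl32 at 4781 TPM, Rplp0 at 4681, Rpl4 at 4606, Rpl36 at 3077 and Rps27 at 2771. Rpl32 and Rpl36 encode large-subunit proteins, Rpl4 lines the exit tunnel of the large subunit, Rplp0 anchors the stalk that recruits translation factors, and Rps27 belongs to the small subunit. Although the proteins are made in equal number, the mRNA levels of genes with 100 TPM or more thus spanned over an order of magnitude. Lengths were sums of all annotated exons, from 383 to 6270 bases, so a gene with long minor isoforms is listed too low per length.

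**Figure D1:**
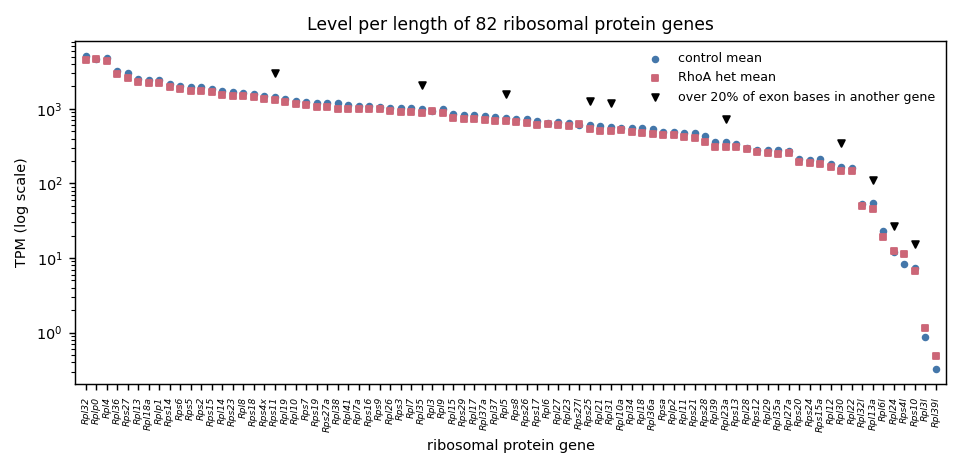
Mean TPM (log axis) of the 82 ribosomal protein genes with fragments, ordered by their mean over 8 libraries, for control (circles, n = 4) and RhoA het (squares, n = 4). Triangles, drawn above a gene's points, mark 10 genes that share over 20% of their exon bases with another gene. Rpl32, with 193 of its 963 exon bases shared, lies just over that limit and is not marked. The level falls slowly from Rpl32 at 4781 TPM and drops steeply over the 8 plotted genes under 100 TPM.

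The low end of the list held paralogues and genes that are hard to count. Rpl3l, the paralogue of Rpl3 made in skeletal and heart muscle fibres, averaged 1.01 TPM. Rpl39l, a paralogue of the X-linked Rpl39 best known from the male germ line, had 0 to 6 fragments per library. Rpl10l, the germ-line counterpart of the X-linked Rpl10, had 0 fragments in every library, which allows up to 0.112 to 0.158 CPM (3 fragments per library, counting error only). These last genes were removed by the filter on low counts, and 81 of the 83 were tested.

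Rps10 and Rpl24, core proteins of the small and large subunit, were listed at 7.07 and 12.2 TPM. Rps10 shares 28.7% of its exon bases with other annotated genes, among them the read-through gene RPS10-NUDT3, and Rpl24 shares 47.0% with Gm28037 on the same strand. Fragments that fit several genes were not counted, and the 4 copies of Rps10 recognised by symbol held 3363 fragments against 866 for Rps10 itself. Rpl13a, at 50.5 TPM, shares 35.4%. Overlap did not always go with a low level: Rpl35 shares 66.2% of its exon bases, with opposite-strand genes, and stood at 938 TPM. In all, 37 of the 83 genes share exon bases with another gene, 18 with one on the opposite strand, which unstranded counts cannot tell apart.

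Together the 83 genes took 4.90%, 3.50%, 5.22% and 5.58% of the assigned fragments in control 2, 5, 7 and 8, and 4.13%, 4.16%, 4.47% and 4.13% in RhoA het 5, 6, 7 and 8. The RhoA het libraries lay close together, above control 5 and below the other 3 controls. The means were 4.80% ± 0.91 in control and 4.23% ± 0.16 in RhoA het (SD, n = 4 each). At these depths the counting error is small: the 95% Wilson interval was 3.49% to 3.50% in control 5 and 5.57% to 5.59% in control 8. The difference of 0.57 percentage points was smaller than the SD of the controls. In deposited TPM the shares averaged 8.52% ± 1.41 and 7.72% ± 0.36. A lower share in bulk RNA can come from fewer cells of a type or from less RNA per cell, which cannot be told apart.

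**Figure D2:**
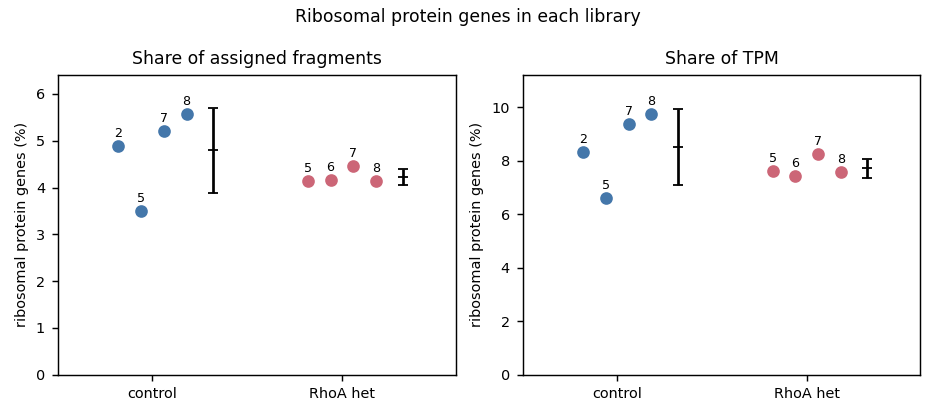
Share of assigned fragments (left) and of TPM (right) taken by the 83 ribosomal protein genes, in percent, 1 point per library with its replicate number; bars give mean ± SD (n = 4 per group). RhoA het libraries sit at 4.13% to 4.47% of fragments, between control 5 at 3.50% and the other controls at 4.90% to 5.58%.

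The proportion of the subunits differed little between the groups, and the difference was not tested. Summed TPM of large-subunit over small-subunit genes was 1.601 ± 0.054 in control and 1.62 ± 0.031 in RhoA het (SD, n = 4 each). The ranges were 1.56 to 1.67 in control and 1.59 to 1.66 in RhoA het, and those of the groups overlapped. Without control 5 the ratio in control was 1.58 ± 0.040 (SD, n = 3), with a range of 1.56 to 1.63.

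Between the groups, 79 of the 81 tested genes had lower fitted levels in RhoA het, against 50.1% of all 15660 tested genes. Their median log2 fold change was -0.26 and that of all genes was -0.00071. The fold changes were narrowly spread, with 74 of 81 between -0.35 and -0.15. The large subunit had 48 of 49 lower (median -0.26) and the small subunit 31 of 32 (median -0.26). No gene passed an adjusted p of 0.05 in edgeR's quasi-likelihood test: 0 of 81, and 0 of all genes, with a lowest adjusted p over the family of 1.00. At an unadjusted p under 0.05 there was 1 gene, Rpl13a, where 0.696% of all genes were lower and 2.38% differed in either direction. The Wald test of DESeq2 gave the same counts, 0 adjusted and 1 unadjusted. The median standard error of 0.19 was of the size of the differences. On TPM, tested with limma as log2(TPM + 1), the median was -0.14 and 75 of 81 were lower. The signs are not 81 separate observations, since the genes vary together across the libraries.

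Rpl13a, a large-subunit protein also known for a role in translational silencing outside the ribosome, was the only gene of the family whose groups did not overlap. It lies on mm39 chromosome 7 from 44774982 to 44778185, minus strand (ENSMUSG00000074129.15), and its window above ends with the run CCTCCTCC. Its levels were 36.7, 31.7, 40.8 and 39.5 CPM in control 2, 5, 7 and 8 and 27.6, 27.8, 31.7 and 30.6 CPM in RhoA het 5, 6, 7 and 8. The lowest control and the highest RhoA het library differed by less than 0.1 CPM. The means were 37.2 ± 4.03 and 29.4 ± 2.05 CPM (SD, n = 4 each), with a log2 fold change of -0.34 (SE 0.12, 95% interval -0.61 to -0.064). The exact permutation p was 0.0286, the smallest possible for 4 against 4, and the edgeR p was 0.0208 unadjusted and 1.00 adjusted. Among all genes, 0.792% had every RhoA het library below every control. In deposited TPM the groups overlapped, with control at 44.8 to 64.4 and RhoA het at 40.5 to 49.9. The fragments on this gene are uncertain because of the shared exon bases.

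The lack of a call for the other genes came with a wide spread inside the controls. Rps19, a small-subunit protein whose loss causes Diamond-Blackfan anaemia in humans (mm39 chromosome 7, 24583796 to 24589231, plus strand), was at 2270, 1050, 1964 and 2169 CPM in control 2, 5, 7 and 8. It was at 1391, 1603, 1594 and 1491 CPM in RhoA het 5, 6, 7 and 8. All RhoA het values fell into the gap between control 5 and the other controls. The log2 fold change was -0.29 (SE 0.23, edgeR unadjusted p 0.228).

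Rps6, the small-subunit protein phosphorylated downstream of mTORC1 (mm39 chromosome 4, 86772897 to 86775649, minus strand), showed the same order. Control 2, 5, 7 and 8 were at 1250, 619, 1095 and 1192 CPM, and RhoA het 5, 6, 7 and 8 at 750, 894, 957 and 903 CPM. Again control 5 was lowest and the other controls highest, with a log2 fold change of -0.25 (SE 0.22, edgeR unadjusted p 0.281). Rpl38, a large-subunit protein needed for patterning of the skeleton (mm39 chromosome 11, 114559350 to 114563157, plus strand), had the most negative fold change of the family. It was at 240, 134, 214 and 260 CPM in the controls and 155, 167, 185 and 153 CPM in RhoA het, in the same order of libraries. Control 5 lay below the RhoA het range and the other controls above it, and the log2 fold change was -0.36 (SE 0.19, edgeR unadjusted p 0.0922).

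The most abundant gene per length, Rpl32 (mm39 chromosome 6, 115782466 to 115785708, minus strand), read 1860, 1022, 1672 and 1788 CPM in the controls. In RhoA het it read 1265, 1380, 1354 and 1261 CPM. The RhoA het libraries differed by less than 10% from each other and again lay between control 5 and the rest (log2 fold change -0.27, SE 0.19, edgeR unadjusted p 0.192).

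Members of other known roles lay in the same band. The stalk proteins Rplp1 and Rplp2, which bind translation factors, had log2 fold changes of -0.25 and -0.26. Rpl5 and Rpl11, which bind MDM2 when ribosome assembly is disturbed, had -0.24 and -0.28. Rpsa, also known as the laminin receptor, had -0.23. Rps27a, made as a fusion with ubiquitin, had -0.30. Of the X-linked genes Rpl10, Rps4x, Rpl36a and Rpl39 the values were -0.22, -0.23, -0.32 and -0.31. None of these had an unadjusted p under 0.05 in edgeR, and in each the groups overlapped.

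**Figure D3:**
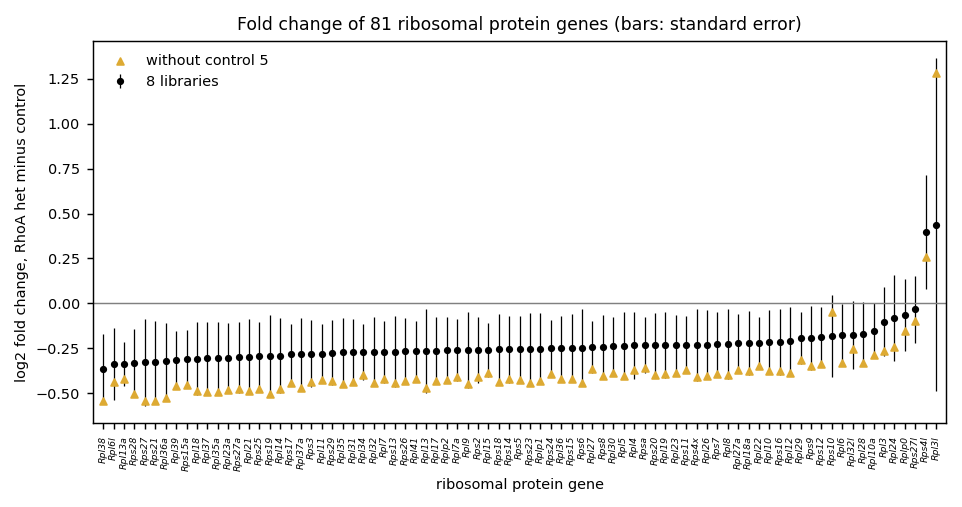
Fitted log2 fold change (RhoA het minus control) of the 81 tested ribosomal protein genes, ordered by size, with the standard error as a bar for the fit over 8 libraries (circles) and the value without control 5 (triangles). Of the circles, 79 lie below 0 and 74 between -0.35 and -0.15; the triangles of most genes are lower, with a median of -0.42.

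Seen gene by gene, the family moved as a block across the libraries. Control 5 was the lowest of all 8 libraries for 70 of the 81 genes, against 14.6% of all genes. The highest library was control 2 for 49 genes and control 8 for 27. The median deviation of log2 CPM from each gene's mean, over the 75 genes with at least 10 CPM, was 0.37 in control 2, -0.45 in control 5, 0.18 in control 7 and 0.33 in control 8. In RhoA het 5, 6, 7 and 8 it was -0.17, -0.065, -0.030 and -0.17. The controls thus spanned a range several times that of the RhoA het libraries.

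**Figure D4:**
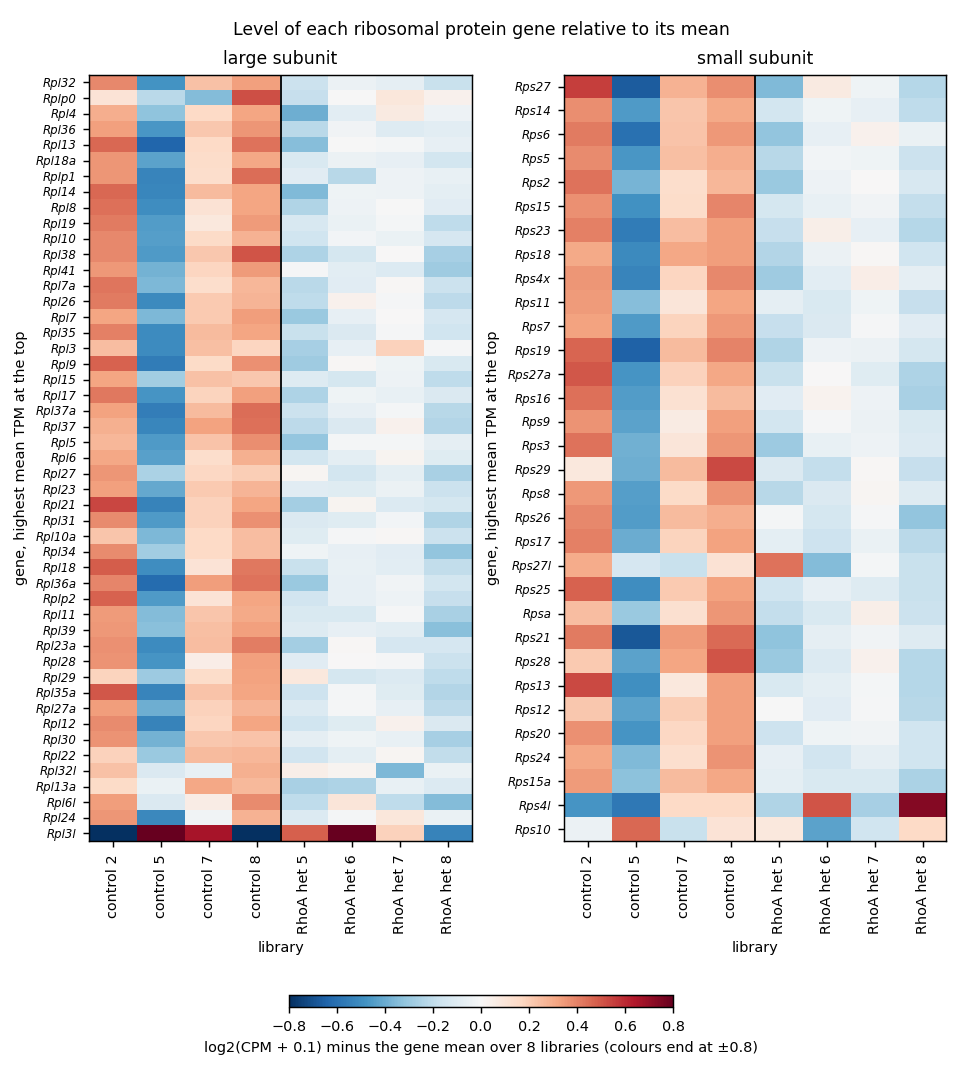
Each row is a tested ribosomal protein gene (large subunit left, small subunit right, highest mean TPM at the top) and each column a library; the colour is log2(CPM + 0.1) minus the gene's mean over the 8 libraries. Control 5 is blue and the other controls red in nearly every row; Rplp0, Rps27l, Rpl3l, Rps4l and Rps10 break the pattern.

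After the shared profile was subtracted, the remaining SD per gene had a median of 0.072 on the log2 scale. It was smallest for Rps20 at 0.015, Rpl32 at 0.029 and Rps14 at 0.030. Rps20, a small-subunit protein (mm39 chromosome 4, 3831334 to 3835665, minus strand), was at 329, 183, 286 and 320 CPM in control 2, 5, 7 and 8 and at 227, 248, 249 and 228 CPM in RhoA het 5, 6, 7 and 8. Its values follow the family's profile almost exactly. Rps20 and Rps14 are named because of these values.

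A few genes departed from the block. Rplp0, the stalk base often used as a reference gene (mm39 chromosome 5, 115697526 to 115701786, plus strand), was at 2579, 2066, 1882 and 3421 CPM in control 2, 5, 7 and 8. In RhoA het 5, 6, 7 and 8 it was at 2107, 2395, 2551 and 2457 CPM. Here control 7 was the lowest library and control 8 the highest, and the groups overlapped throughout (log2 fold change -0.065, SE 0.20). Its sign turned positive on the TPM scale (0.053) and without control 8 (0.13).

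Rps27l, a paralogue of Rps27 that p53 is known to induce (mm39 chromosome 9, 66853368 to 66856798, plus strand), was at 190, 141, 137 and 168 CPM in the controls. It was at 210, 122, 153 and 137 CPM in RhoA het. RhoA het 5 was highest and RhoA het 6 lowest, so the spread lay inside that group (log2 fold change -0.033, SE 0.19), and the sign changed under several alternatives. Rps27 itself followed the block, at 1301, 559, 1074 and 1148 CPM in control 2, 5, 7 and 8 and 695, 931, 865 and 758 CPM in RhoA het 5, 6, 7 and 8. Its log2 fold change was -0.33 (SE 0.24). The paralogues thus had different orders of libraries.

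Rpl3, which lies near the peptidyl transferase centre, was at 1086, 645, 1084 and 1033 CPM in the controls and at 760, 876, 1041 and 910 CPM in RhoA het. RhoA het 7 reached the level of the 3 higher controls, and the log2 fold change was -0.10 (SE 0.19). It was 0.0030 on the log2(TPM + 1) scale. Rpl3l had 1, 22, 16 and 0 fragments in control 2, 5, 7 and 8 and 11, 25, 9 and 4 in RhoA het 5, 6, 7 and 8. Its highest libraries were RhoA het 6 and control 5, at 1.19 and 1.02 CPM, the libraries in which 12 myofibre markers summed to 512 and 561 CPM against 49.7 to 238 CPM elsewhere. The part of fibre RNA in this was not tested. The fold change of Rpl3l (0.44, SE 0.93) was negative without RhoA het 6 (-0.17).

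Rps4l, a paralogue of Rps4x, was one of the pair of genes with higher fitted levels in RhoA het, the other being Rpl3l. It was at 2.75, 2.56, 4.31 and 4.32 CPM in the controls and 3.24, 5.52, 3.18 and 6.48 CPM in RhoA het. The groups overlapped (log2 fold change 0.40, SE 0.32). Rps10 was at 4.81, 6.88, 4.39 and 5.36 CPM against 5.26, 3.66, 4.44 and 5.55 CPM, with its highest value in control 5 (log2 fold change -0.18, SE 0.23). Rpl24 was at 5.02, 2.69, 3.82 and 4.74 CPM in the controls, with control 5 lowest as in most of the family, and at 3.62, 3.85, 4.17 and 3.75 CPM in RhoA het. Its fold change of -0.080 (SE 0.24) turned positive on the TPM scale (0.035), without control 2 (0.034) and in the fit with the replicate block (0.041).

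The comparison depended on control 5. Without it, the median log2 fold change was -0.42 and 72 of 81 genes had an unadjusted p under 0.05 in edgeR, all of them lower in RhoA het, against 2.32% of all genes lower and 4.36% in either direction. None passed an adjusted p of 0.05 in that fit (0 of 81, lowest adjusted p 1.00). In 72 of 81 genes all 4 RhoA het libraries lay below the remaining 3 controls, against 3.80% of all genes. The 9 exceptions were the same genes in both counts: Rplp0, Rps27l, Rps4l, Rpl32l, Rpl6l, Rpl3, Rpl24, Rpl3l and Rps10. The share of fragments was then 5.23% ± 0.34 in control (SD, n = 3) and 4.23% ± 0.16 in RhoA het (n = 4). Nothing in the labels sets control 5 apart, and leaving it out after its values are known favours this outcome. Without control 2 the median was -0.17, and without control 8 it was -0.19. The fold change of Rpl13a lay between -0.42 and -0.29 when each library was left out in turn, and its unadjusted p exceeded 0.05 without control 7 or without control 8.

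Replicate numbers 5, 7 and 8 occur in both groups and, by the correlation of their deviations, pair the libraries. Within the pairs the family did not move one way. For number 5, 76 of 81 genes were higher in RhoA het, with a median difference of 0.28 in log2 CPM, where 52.1% of all genes were lower. For number 7, 77 of 81 were lower (median -0.23, against 51.3% of all genes lower), and for number 8, 78 of 81 were lower (median -0.49, against 46.2%). Each pair is 1 library against 1, so these differences have no error of their own and the difference between pairs was not tested.

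**Figure D5:**
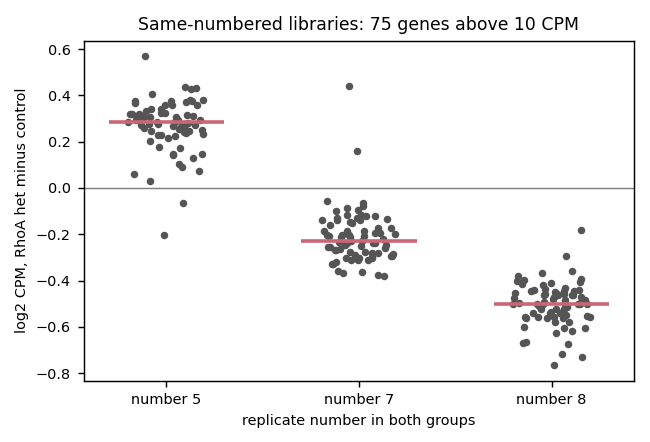
Difference in log2 CPM (RhoA het minus control) within each pair of same-numbered libraries for the 75 ribosomal protein genes above 10 CPM; each point is a gene and the line is the median. The medians are 0.29 for number 5, -0.23 for number 7 and -0.50 for number 8.

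Only Rpl13a, Rpl4 and Rpl6l were lower in RhoA het in all 3 pairs. Rpl4 (mm39 chromosome 9, 64080657 to 64085948, plus strand) was at 3508, 2286, 3197 and 3566 CPM in control 2, 5, 7 and 8 and 2185, 2697, 3010 and 2783 CPM in RhoA het 5, 6, 7 and 8. Its difference within pairs was -0.065, -0.087 and -0.36 for numbers 5, 7 and 8, and its fold change over all libraries was -0.23 (SE 0.19). Rpl13a differed by -0.20, -0.36 and -0.37. When the fit over the 6 paired libraries took the replicate number as a block, the family's median was -0.18 and 78 of 81 were lower by sign, against 53.8% of all genes. Rpl13a again was the gene with an unadjusted p under 0.05 (0.0224 in edgeR, where 2.28% of all genes were lower at that level) and 0 of 81 passed the adjusted threshold. Over all genes the block gave 2 adjusted calls (0.0127%) in place of 0, and neither gene was in the family.

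The cell cycle and dissociation lists moved with the libraries numbered 5. The 17 cell cycle genes averaged 4.90 and 4.40 in log2 CPM in control 5 and RhoA het 5, against 1.40 to 1.91 in the other controls and 2.15 to 2.86 in the other RhoA het libraries. Mki67, a marker of cycling cells, had 1241 and 801 fragments there and 7 to 80 elsewhere, and Bub1 and Plk1 were at 0 in control 2. Not every gene of the list went this way. Pcna had 1461 and 1794 fragments in control 5 and RhoA het 5, against 1501 to 2410 elsewhere. Mcm4 had 1066 and 800 there, against 713 to 1476. The 15 genes of the response to tissue dissociation averaged 9.77 and 9.69 in these libraries and 10.44 to 10.9 elsewhere. Of the 10 fibro-adipogenic genes, the collagen gene Col1a1 was higher there (67820 and 59681 fragments against 7912 to 23519) and Dcn, which encodes decorin, lower (6189 and 11468 against 12646 to 39032). The mean log2 CPM of that list, 6.97 and 6.98, lay inside the range of the other libraries, 6.35 to 7.86, while its summed level was 13990 and 12560 CPM against 4893 to 10470. RhoA het 5 shared these features with control 5, while its ribosomal protein share of 4.13% was close to that of RhoA het 6 and 8. Without both libraries numbered 5, 69 of 80 genes had an unadjusted p under 0.05 (median -0.40, edgeR, 0 adjusted), all lower, where 1.99% of all genes were lower. In the fit without control 5 other lists moved too, where the median log2 fold change of all genes was 0.0032. It was 2.29 for the cell cycle genes, -0.33 for the dissociation genes and 0.57 for the myofibre markers. With all libraries these medians were -0.19, -0.080 and -0.11. Without control 5, 9 of 17 cell cycle genes were higher at an unadjusted p under 0.05 in edgeR, against 4.36% of all genes in either direction. The part of these lists in the result was not tested.

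Other genes of the translation machinery were read from lists chosen with earlier results of these data in view. The 6 ribosomal proteins outside the symbol rule were all lower in RhoA het by sign (median -0.24, against 50.1% of all genes lower), with 0 at an unadjusted p under 0.05. Among them Rpl7l1, a large-subunit paralogue, had a log2 fold change of -0.31, Rack1, a scaffold on the small subunit, -0.24 and Rpl36al, the autosomal copy of Rpl36a, -0.24. Rps3a1, the usual small-subunit gene of that name, had -0.23 (SE 0.16).

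The 26 other TOP mRNAs, a list that encodes translation factors and their partners and again holds Rack1 and Fau, were lower by sign in 26 of 26 (median -0.19). None had an unadjusted p under 0.05 in edgeR with all libraries, and 9 of 26 did without control 5, all lower, against 2.32% of all genes lower and 4.36% in either direction in that fit. Naca and Btf3, the subunits of the nascent polypeptide-associated complex, had log2 fold changes of -0.26 and -0.23. Eif3e, a subunit of the initiation factor that joins the small subunit, had -0.20.

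Among ribosomal protein genes themselves, the 29 with a C and T run at the annotated start had a median log2 fold change of -0.26, all 29 lower by sign. The 30 tested genes with a window and no run had a median of -0.23, 29 of them lower. The difference between the medians was not tested, and a gene without a run at its annotated start may still have the tract.

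The 51 genes of RNA polymerase I and ribosome biogenesis had a median of -0.13, with 46 lower by sign, against 50.1% of all genes. At an unadjusted p under 0.05 in edgeR there were 2, both lower, against 0.696% of all genes lower and 2.38% in either direction. These were Nhp2, a protein of the snoRNPs that guide pseudouridylation (-0.39, edgeR p 0.0318), and Polr1d, a subunit shared by RNA polymerases I and III (-0.29, edgeR p 0.0439). Ubtf, the factor that opens ribosomal DNA, had -0.26 (edgeR p 0.0510). Of 9 tested chaperones and importers of ribosomal proteins 8 were lower by sign (median -0.13, 0 with p under 0.05), with Kpnb1 at -0.23, Grwd1 at -0.22 and Bccip at -0.18.

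Genes that regulate this machinery had both signs. Of 23 tested genes of the mTORC1, LARP1 and MYC list, 7 were lower (median 0.060), against 50.1% of all genes. None of the 23 had an unadjusted p under 0.05 in edgeR. The list mixes activators and inhibitors, so its sign count gives no direction for the pathway, and mRNA levels do not measure mTORC1 activity. Larp1 had a log2 fold change of 0.11, Mtor of -0.059, Myc of -0.14 and Eif4e, the cap-binding factor, of -0.14. Deptor, an inhibitor of mTOR, had 0.22, and Rps6ka1, with mean levels of 0.63 CPM (control) and 1.17 CPM (RhoA het), 0.87 (SE 0.61). Larp1, Mtor and Myc were outside the rule for named genes and were added after their values were seen. Of 5 transcription factors of ribosomal protein promoters 1 was lower (median 0.031), against 50.1% of all genes.

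Mitochondrial ribosomal proteins, which form the separate ribosome of that organelle, served as a family of like size. Of 78 tested, 59 were lower by sign (median -0.065), against 50.1% of all genes. An unadjusted p under 0.05 in edgeR was found for 2 of the 78, both lower, where 0.696% of all genes were lower and 2.38% differed in either direction. These were Mrpl12 (-0.39, edgeR p 0.0123), which also binds the mitochondrial RNA polymerase, and Mrps22 (-0.38, edgeR p 0.0433). Without control 5 the median was -0.068, where that of the cytosolic family was -0.42. The mean log2 CPM of the mitochondrial genes was 4.17, 4.21, 4.32 and 4.11 in control 2, 5, 7 and 8 and 4.17, 4.15, 4.16 and 4.01 in RhoA het 5, 6, 7 and 8, so control 5 did not stand apart in this family.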

How the data were processed

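The authors deposited counts per gene and TPM for 8 libraries. Per the file headers, featureCounts 1.6.4 counted read pairs over the exons of each gene (GENCODE on mm39) in 10 alignment files; control 6 and RhoA het 2 were not analysed here. No strand, multi-mapping or multi-overlap option was set, so fragments shared by copies or overlapping genes can be lost. Symbols came from GENCODE M21 (51884 of 57180 identifiers).

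Deposited counts were tested with edgeR 4.0.16 (R 4.3.3): filterByExpr (15660 genes kept), TMM, quasi-likelihood F test over 8 libraries, Benjamini-Hochberg adjustment, and a two-sided exact permutation test over 70 assignments of log2 CPM (prior count 2). DESeq2 1.42.0 and limma 3.58.1 were alternatives. Fits were tested on simulated data. Deviations of same-numbered libraries correlated at 0.544, 0.231 and 0.488 (numbers 5, 7 and 8, from the titles), and these numbers were taken as pairs. Correlations between differently numbered libraries were not set beside these.

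Named genes followed a rule: known roles, X-linked genes and paralogues, the 5 highest and lowest by TPM, the smallest p, groups without overlap, largest spread, and up to 3 genes per list. The members, lists and rules were chosen with earlier results of these data known. Wilson intervals and limits for 0 fragments cover counting error only.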

Additional observations from a re-analysis of the deposited data

Results flagged for a closer look

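Within groups of 4 libraries, 62 sets of values were examined for a library far from the other 3, and 5 exceeded Dixon's 95% critical value, where chance gives about 3.1. Control 5 was far below the other controls for Rpl3 (645 CPM, ratio 0.88), Rpl36a (164 CPM, ratio 0.87) and Rps15a (303 CPM, ratio 0.84). Rps15a, a small-subunit protein, was at 482, 454 and 471 CPM in control 2, 7 and 8. RhoA het 8 was far below the other RhoA het libraries for Rpl39, at 118 CPM against 139 to 143 CPM (ratio 0.86). RhoA het 7 had the highest share of fragments on ribosomal protein genes in its group, 4.47% (ratio 0.91).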

How the results depend on the processing

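Over 21 alternatives the family's median log2 fold change kept its sign, from -0.42 to -0.14, and 0 members passed an adjusted p of 0.05. The number with an unadjusted p under 0.05 was 1 with all libraries; it was 0 with total counts, with limma on log2(TPM + 1) or log2(TPM + 0.1), and in the 6 paired libraries without the block. It was 69 without both libraries numbered 5, an alternative chosen after seeing the data, and 0 to 72 when each library was left out in turn. Medians then ran from -0.42 to -0.17 and the share difference from -1.01 to -0.31 percentage points. The replicate block gave 2 adjusted calls over all genes and changed no call of a member.

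Of 45 named genes, 5 changed sign. On log2(TPM + 1) and log2(TPM + 0.1) these were Rpl24 (0.035 and 0.039), Rpl3 (0.0030 and 0.0030), Rplp0 (0.053 and 0.053) and Rps27l (0.031 and 0.031). Total counts gave 0.037 for Rps27l. The paired libraries with and without the replicate block gave 0.041 and 0.0096 for Rpl24, -0.29 and -0.54 for Rpl3l, and 0.12 and 0.14 for Rps27l. Leaving out each library gave -0.25 to 0.034 for Rpl24, -0.17 to 1.28 for Rpl3l, -0.18 to 0.13 for Rplp0 and -0.21 to 0.065 for Rps27l. Genes at an unadjusted p under 0.05 over the whole table were 263 higher and 109 lower; total counts gave 293 and 49, log2(TPM + 1) 273 and 53, log2(TPM + 0.1) 278 and 48, the block 468 and 359, and the fit without control 5 330 and 373. The cause of these changes was not tested.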

Other observations

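Pseudogene copies recognised by symbol, 298 in all for 60 of the genes, took 0.0522% to 0.0877% of fragments in control and 0.0611% to 0.0677% in RhoA het. Rplp0-ps1, a copy of Rplp0, had 353, 46, 398 and 76 fragments in control 2, 5, 7 and 8 and 35, 38, 51 and 34 in RhoA het 5, 6, 7 and 8. Its high values were confined to control 2 and control 7 among these libraries. Rpl3-ps1 had 2659, 1728, 2129 and 2994 fragments in the controls and 1146, 2531, 1615 and 1384 in RhoA het. Both were chosen after their values were seen, and fragments can be shared with the parent gene. Adding copies to their parents left the family's median at -0.26.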
